A study of Mus musculus with 2 samples.

Results

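Sctr, Tmem37, Dbi and 3110009E18Rik are protein-coding genes that lie next to each other on mouse chromosome 1, between a gene-rich stretch from Ralb to Ptpn4 and a second stretch from Steap3 to Marco that borders En1. Their promoters were taken as viewpoints in a capture Hi-C map: the 10 kb bin that holds each gene's annotated start (GENCODE M1 on NCBIM37, the assembly also named mm9) was set against every other bin from position 120180001 up. These 4 genes, of 25 protein-coding genes with a start in that range, gave 3 viewpoint bins, because the starts of Dbi and 3110009E18Rik lie 109 bp apart and share a bin at both 10 kb and 5 kb. Values given for one of this pair therefore hold for both.

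The map came from fore- and hindlimb buds of wild-type mouse embryos at E10.5, fixed in 2% paraformaldehyde, with no treatment, mutation or second condition. Hi-C joins and sequences pieces of chromatin that lie close together in the nucleus, and probe capture limits the sequencing to 1 locus, here that of En1, a homeobox gene of limb patterning. The labels give 2 samples, both with replicate number 2 in the title. The deposited map is labelled merged and names no single sample, so it was read as pooled over both. Every value below is the authors' pooled value or is computed from it, with no replicate error. Fore- and hindlimb, and the cell types within them, cannot be told apart, and a contact map holds no marker expression against which the tissue label could be checked. It held 6484654 read pairs, and the bins from 120180001 up had a median total of 23885.5 read pairs. Intervals are at the 95% level and cover counting error only, since the map is pooled. The read pairs also carry no molecular identifiers.

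A promoter is the stretch of DNA around a gene's start from which transcription is launched. Its contacts fall off steeply with distance along the chromosome, and chromosomes are folded into domains, stretches that contact themselves more than their neighbours. Many domain boundaries in mammals carry binding sites of CTCF, a DNA-binding protein that halts the cohesin ring, and pairs of such sites that point towards each other are often found at the feet of loops. Sctr encodes the secretin receptor, Tmem37 a membrane protein related to the gamma subunits of calcium channels, and Dbi the acyl-CoA-binding protein, also called diazepam-binding inhibitor.

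Sctr (ENSMUSG00000026387.8) runs on the plus strand from 121903557 to 121960105, and its start lies in the bin from 121900001 to 121910000. Tmem37 (ENSMUSG00000050777.7) runs on the minus strand from 121963954 to 121970651, so that its start lies at the upper end, in the bin from 121970001 to 121980000, 67.1 kb above that of Sctr. Dbi (ENSMUSG00000026385.9) runs on the minus strand from 122009857 to 122017655, and 3110009E18Rik (ENSMUSG00000026388.9) runs away from it on the plus strand from 122017764 to 122084766. Their shared bin runs from 122010001 to 122020000, and the Dbi start lies 47.0 kb above that of Tmem37. The Sctr bin is itself a boundary, a local minimum of the insulation score (log2 of the mean contact across a position, here -0.49, with a prominence of 0.74). Tmem37, Dbi and 3110009E18Rik start in the short segment between that boundary and the next, from 121910001 to 122040000.

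The interval between the divergent starts of Dbi and 3110009E18Rik is printed because it shows why no contact could be assigned to one of them. It spans chr1:122017655-122017764 on NCBIM37, plus strand, 110 bases with the first base of each gene included. It is 63.6% G and C, with 12 CpG dinucleotides, and the capitals mark its 1 recognition site (GATC) of DpnII, the enzyme that cut the chromatin.
Dbi-3110009E18Rik: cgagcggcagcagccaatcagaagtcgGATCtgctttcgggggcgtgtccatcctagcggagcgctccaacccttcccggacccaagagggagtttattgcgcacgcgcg

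Letters that match a shortened CTCF motif core, CCANNAGNNGGC, were searched on both strands of NCBIM37 and are shown in capitals for the Sctr bin and for its most enriched partner, a bin at 120980001 described further down. The match in the Sctr bin lies in an intron of Sctr, 6.34 kb inside the gene (chr1:121909887-121909916, minus strand). The partner bin holds a match on the plus strand (chr1:120984290-120984319) and another on the minus strand (chr1:120980416-120980445), both intergenic. The Sctr match and the plus-strand match of the partner point towards each other, while the minus-strand match points the same way as that of Sctr. Of the next partners of Sctr, the bin from 121440001 holds 0 matches and that from 120990001 holds 1, on the minus strand.
Sctr: agaagctggCCACCAGGGGGCagagctggg
partner 120980001: gcatcttatCCACCAGGTGGCgatctaatg
partner 120980001: caaattacaCCACCAGAGGGCagaagaaaa
The Dbi/3110009E18Rik bin holds 1 match, in an intron of Dbi (chr1:122013260-122013289, minus strand).
Dbi/3110009E18Rik: gtcttgacaCCAAGAGGTGGCggcatactc
The letters are not in the Tmem37 bin. They occur in 194 of 422 bins (46.0%), and no CTCF binding was measured, so a match is a description only.

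The 3 viewpoints were covered unequally. The Sctr bin had 37209 read pairs (95% Poisson interval 36832 to 37589), rank 45 of 422 bins. The Tmem37 bin had 26082 (25766 to 26401) and the Dbi/3110009E18Rik bin 26047 (25732 to 26365), ranks 182 and 184. The Sctr bin held 32 DpnII sites, the Tmem37 bin 23 and the Dbi/3110009E18Rik bin 28, against a median of 25 per bin (range 11 to 47). Of these read pairs, 28707, 18797 and 18055 joined the viewpoint to another bin of the range. Because totals differ, contacts are given as observed over expected, where the expected count is the mean balanced signal at that distance times the balancing factors of both bins, and 1 is the level expected from distance and coverage.

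Sctr contacted the Ralb-Ptpn4 stretch more than the Steap3-Marco stretch relative to expectation, Tmem37 contacted both below expectation with a smaller difference, and for Dbi/3110009E18Rik the difference over all bins was within counting error. The Ralb-Ptpn4 stretch (121370001 to 121900000, 53 bins) holds the starts of Ralb, Epb4.1l5, Ptpn4, Tmem177 and Gm101. The Steap3-Marco stretch (122050001 to 122460000, 41 bins) holds those of Steap3, C1ql2 and Marco. From Sctr, 11213 read pairs reached the Ralb-Ptpn4 stretch, 39.1% of its contacts (Wilson 38.5 to 39.6%), with an observed/expected value of 1.04 (1.02 to 1.05). It had 3299 read pairs with the Steap3-Marco stretch, 11.5% (11.1 to 11.9%), at 0.856 (0.827 to 0.886). The ratio of these 2 observed/expected values, called the stretch contrast here, was 1.21 (exact conditional interval 1.16 to 1.26).

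From Tmem37, 3260 read pairs reached the Ralb-Ptpn4 stretch, 17.3% of its contacts, at an observed/expected value of 0.836 (0.808 to 0.866). It had 2826 with the Steap3-Marco stretch, 15.03%, at 0.757 (0.730 to 0.786), which gave a contrast of 1.10 (1.05 to 1.16). Both stretches were thus contacted below the level expected from distance, in raw counts of similar size. From Dbi/3110009E18Rik, 2803 read pairs reached the Ralb-Ptpn4 stretch, 15.5%, at 0.825 (0.795 to 0.857). It had 3887 with the Steap3-Marco stretch, 21.5%, at 0.807 (0.782 to 0.833). This bin thus had more read pairs with the nearer Steap3-Marco stretch, but its contrast of 1.02 had an interval, 0.974 to 1.07, that included 1.

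The contrasts differed between viewpoints beyond counting error. The contrast of Sctr was 1.10 times that of Tmem37 (1.03 to 1.17) and 1.18 times that of Dbi/3110009E18Rik (1.11 to 1.26). That of Tmem37 was 1.08 times that of Dbi/3110009E18Rik (1.01 to 1.16). All 3 lay between those of the promoters on either side. Start bins inside the Ralb-Ptpn4 stretch had contrasts from 1.31 (Gm101) to 1.81 (Ptpn4), and those inside the Steap3-Marco stretch from 0.473 (C1ql2) to 0.722 (Marco). En1 had 0.992. The 5 kb bins that hold the starts gave a contrast of 1.21 for Sctr, 1.13 for Tmem37 and 0.956 for Dbi/3110009E18Rik.

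**Figure D1:**
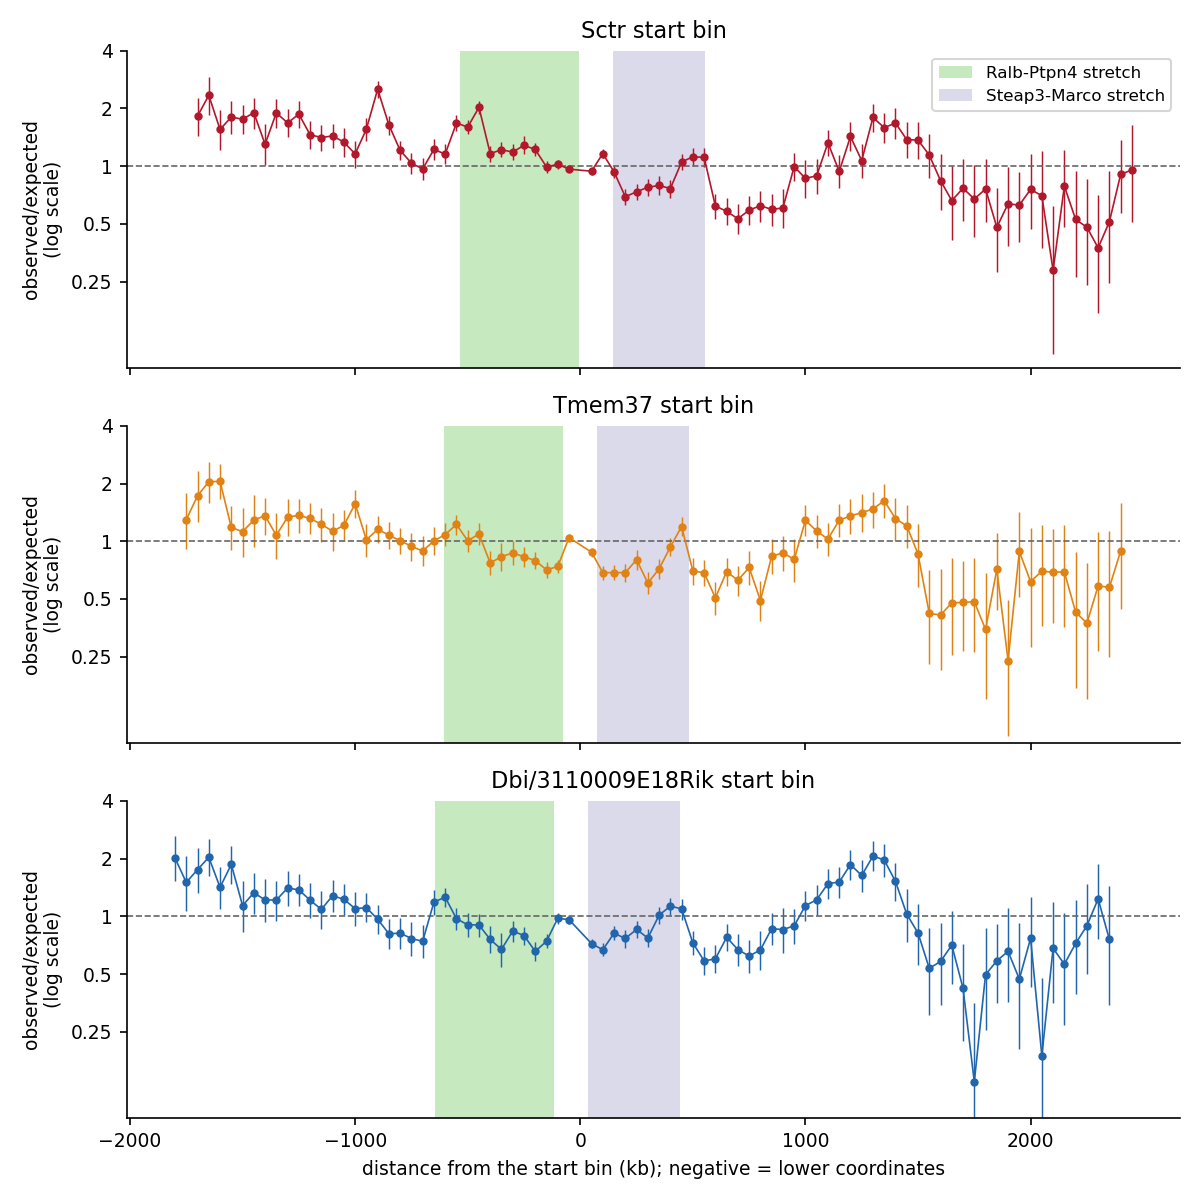
Observed/expected read pairs of the 3 start bins (log axis) with windows of 5 bins of 10 kb, against the distance of the window's centre from the start bin in kb; points are pooled values, bars exact Poisson 95% intervals, the dashed line marks 1, and shading marks both stretches. The Sctr profile lies mostly above 1 in the Ralb-Ptpn4 stretch and beyond it at lower coordinates, while those of Tmem37 and Dbi/3110009E18Rik lie mostly below 1 in both stretches.

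The stretches lie at unequal distances from the starts, and near bins hold most of the read pairs, so the contrast was also taken at matched distances. The Ralb-Ptpn4 stretch begins 10 kb from the Sctr bin and the Steap3-Marco stretch 150 kb from it; for Tmem37 both begin 80 kb away, and for Dbi/3110009E18Rik 120 and 40 kb away. With only the distances that both stretches have from a viewpoint, the contrast was 1.59 (1.52 to 1.66) for Sctr, 1.04 (0.988 to 1.10) for Tmem37 and 0.835 (0.787 to 0.887) for Dbi/3110009E18Rik. Matching thus enlarged the contrast of Sctr, took the interval of Tmem37 across 1, and put Dbi/3110009E18Rik on the side of the Steap3-Marco stretch.

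To compare the viewpoints with each other, the 30 distances from 150 to 440 kb that both stretches have from all 3 bins were used, a choice made after the data were seen. At these distances the Sctr bin had 3021 read pairs with the Ralb-Ptpn4 stretch, an observed/expected value of 1.21 (1.17 to 1.26), and 2404 with the Steap3-Marco stretch, 0.776 (0.746 to 0.808). The Tmem37 bin had 1593 and 1833 read pairs, at 0.815 (0.775 to 0.856) and 0.747 (0.713 to 0.782). The Dbi/3110009E18Rik bin had 1499 and 2198, at 0.731 (0.694 to 0.769) and 0.908 (0.871 to 0.947). Sctr thus stood apart mainly in its contacts with the Ralb-Ptpn4 stretch, and Dbi/3110009E18Rik had the highest value of the 3 with the Steap3-Marco stretch. The contrast of Sctr was 1.43 times that of Tmem37 (1.31 to 1.56) and 1.94 times that of Dbi/3110009E18Rik (1.78 to 2.11), and that of Tmem37 was 1.36 times that of Dbi/3110009E18Rik (1.24 to 1.49).

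The level changed with distance within each stretch. From Sctr to the Ralb-Ptpn4 stretch, the observed/expected value was 0.917 under 100 kb, where 6120 of the 11213 read pairs lay, 1.01 from 100 to 200 kb and 1.68 (1.58 to 1.77) from 400 to 500 kb. To the Steap3-Marco stretch it was 0.850 from 100 to 200 kb, 0.716 from 200 to 300 kb and 1.25 (1.14 to 1.37) from 500 to 600 kb. From Tmem37 it ran from 0.682 to 1.16 over the classes of the Ralb-Ptpn4 stretch and from 0.673 to 1.09 over those of the Steap3-Marco stretch. From Dbi/3110009E18Rik the nearest class of each stretch had the lowest value, 0.681 and 0.687, and the farthest class the highest, 1.31 in both. From each viewpoint, then, the class of either stretch nearest to it was contacted at a lower level, relative to expectation, than the farthest class of that stretch.

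**Figure D2:**
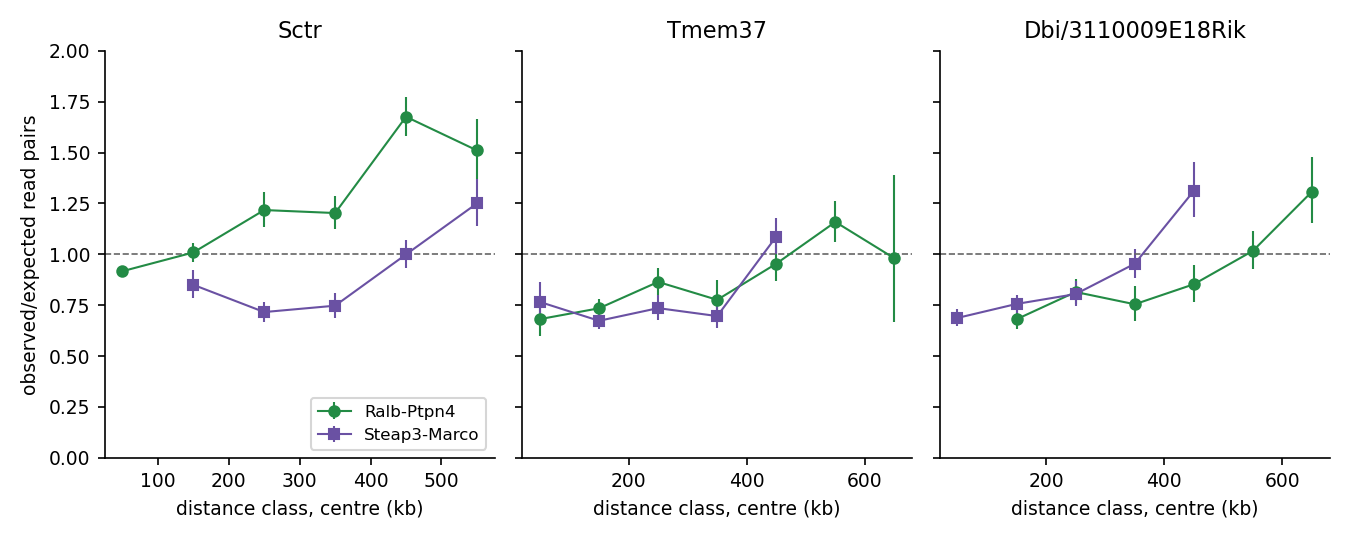
Observed/expected read pairs of each start bin with the bins of the Ralb-Ptpn4 stretch (circles) and of the Steap3-Marco stretch (squares), by classes of 100 kb of distance from the start bin (x axis, centre of the class in kb); bars are exact Poisson 95% intervals. For Sctr the circles lie above the squares in every class that both stretches have, from 1.01 against 0.850 to 1.51 against 1.25, while for Dbi/3110009E18Rik the squares are at 0.954 and 1.31 in the 2 farthest classes that both have, against 0.755 and 0.853.

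The contrast was then followed bin by bin across the locus, which shows how local the value of each promoter bin is. With contacts at 100 kb or more only, the contrast was 1.43 (1.37 to 1.497) in the Sctr start bin, 1.19 in the next bin and 0.913, 0.835 (0.784 to 0.889) and 0.913 in the 3 bins after that, all inside the Sctr gene. It was 1.02 in the last bin wholly inside Sctr, 1.10 in the next one, 1.13 (1.07 to 1.19) in the Tmem37 start bin and 1.21 (1.16 to 1.27) in the bin above it. From there it was lower again, with 0.959 (0.910 to 1.01) in the Dbi/3110009E18Rik bin, 0.757 and 0.690 in the next 2 bins, and 0.611 at the boundary bin from 122040001. The start bin of Sctr and the 3 bins in the middle of the gene thus fell on opposite sides of 1, and Tmem37 lay beside the local maximum, not at it. Below Sctr the contrast was higher, at 1.56 (1.47 to 1.66) in the Gm101 start bin and 2.40 (2.27 to 2.55) in that of Tmem177. Distances were not matched here, and at matched distances Tmem37 had 1.04 (0.988 to 1.10). In 3110009E18Rik, 2 of 5 distinct annotated transcript starts lie farther inside the gene, in the bins from 122040001 and 122050001. The contrasts of these bins over all bins were 0.812 (0.774 to 0.850) and 0.647 (0.607 to 0.688).

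**Figure D3:**
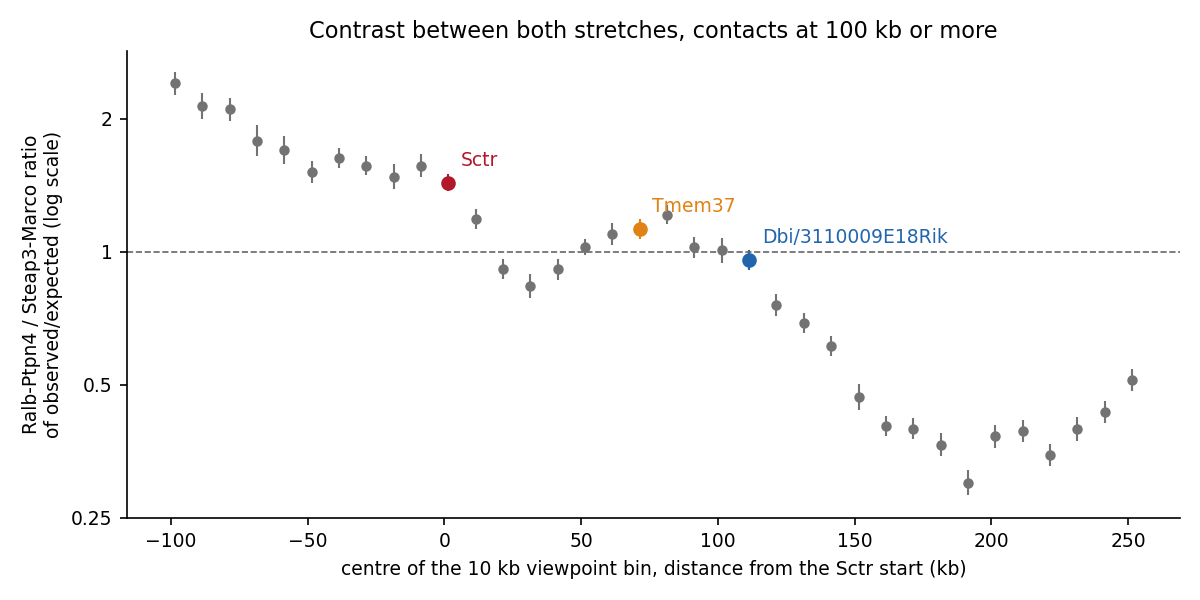
Stretch contrast (Ralb-Ptpn4 over Steap3-Marco, log axis) of each 10 kb viewpoint bin, from contacts at 100 kb or more, against the distance of its centre from the Sctr start in kb; bars are exact conditional 95% intervals, grey points are bins without a start of Sctr, Tmem37, Dbi or 3110009E18Rik. The contrast is 1.56 in the Gm101 start bin just below Sctr, 1.43 at Sctr and 0.835 inside the Sctr gene. It is 1.13 at Tmem37, 0.959 at Dbi/3110009E18Rik and 0.611 at the boundary above Dbi/3110009E18Rik.

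Beyond the neighbouring stretches, the 3 viewpoints shared a pattern, which was looked at after values had been seen. Far stretches that hold genes at lower coordinates were contacted above expectation, and so was the stretch from Insig2 to Ddx18 at higher coordinates, while the stretch of En1 and the ends without a protein-coding start were below it. With the stretch from Tsn to Gm11102 (120180001 to 120430000), the observed/expected value was 1.82 (1.66 to 1.99) for Sctr, 1.69 (1.504 to 1.89) for Tmem37 and 1.705 (1.52 to 1.91) for Dbi/3110009E18Rik. With the stretch of Gli2, a transcription factor of hedgehog signalling, it was 1.40 (1.32 to 1.49), 1.28 (1.18 to 1.38) and 1.28 (1.19 to 1.39). The stretch from Insig2 to Ddx18 (123100001 to 123470000) gave 1.45 (1.35 to 1.55), 1.36 (1.25 to 1.47) and 1.66 (1.54 to 1.78).

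The viewpoints parted at the stretch of Inhbb, which encodes an activin and inhibin subunit and lies just below Ralb. There Sctr had 1.31 (1.26 to 1.37), Tmem37 1.03 (0.965 to 1.09) and Dbi/3110009E18Rik 0.884 (0.826 to 0.946), in the order of their positions and with intervals that do not overlap. At the stretch of Tcfcp2l1, a transcription factor of pluripotent cells, Sctr had 1.77 (1.61 to 1.93), above Tmem37 at 1.22 (1.07 to 1.39) and Dbi/3110009E18Rik at 1.37 (1.21 to 1.54). With the stretch of En1 (122470001 to 123090000) the values were 0.701, 0.725 and 0.743, with intervals that overlap. With the 2 stretches at the upper end, which hold no protein-coding start, they ran from 0.481 to 0.741. Within the segment from 121910001 to 122040000, which holds Tmem37, Dbi and 3110009E18Rik and adjoins Sctr, they were 0.926, 0.939 and 0.894.

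The bins of the segment were also taken as viewpoints, those with a start included. Over these 13 bins, the value with the stretch of Gli2 had a median of 1.26 and ran from 1.06 to 1.5. Tmem37 and Dbi/3110009E18Rik, at 1.28 each, lay near that median, and both ends of the range came from bins without a start. The medians over the bins of the Ralb-Ptpn4 and Steap3-Marco stretches were 0.965 and 0.962. With Tsn to Gm11102 and with Tcfcp2l1, by contrast, both neighbours were above expectation too, with medians of 1.39 and 1.34 and of 1.25 and 1.2, against 1.66 and 1.401 over the segment. With Insig2 to Ddx18 the median was 1.18 over the Ralb-Ptpn4 bins, 1.52 over the segment and 1.85 over the Steap3-Marco bins, so the segment lay between its neighbours. With the stretch of En1 the medians were 0.607 over the Ralb-Ptpn4 bins, 0.7299 over the segment and 0.661 over the Steap3-Marco bins. With both stretches at the upper end they were 0.6703 and 0.7004 over the Ralb-Ptpn4 bins and 0.664 and 0.657 over the segment. Over the Steap3-Marco bins they were 0.8602 and 0.893. Medians below expectation with these stretches were thus shared by both neighbours. The Tmem37 bin had the lowest value of the 13 with the Steap3-Marco stretch (0.757, with a highest value of 1.04), and the Dbi/3110009E18Rik bin the lowest with the stretch of Inhbb (0.884, against 1.12). Whether the gene content of these far stretches plays a part was not tested.

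**Figure D4:**
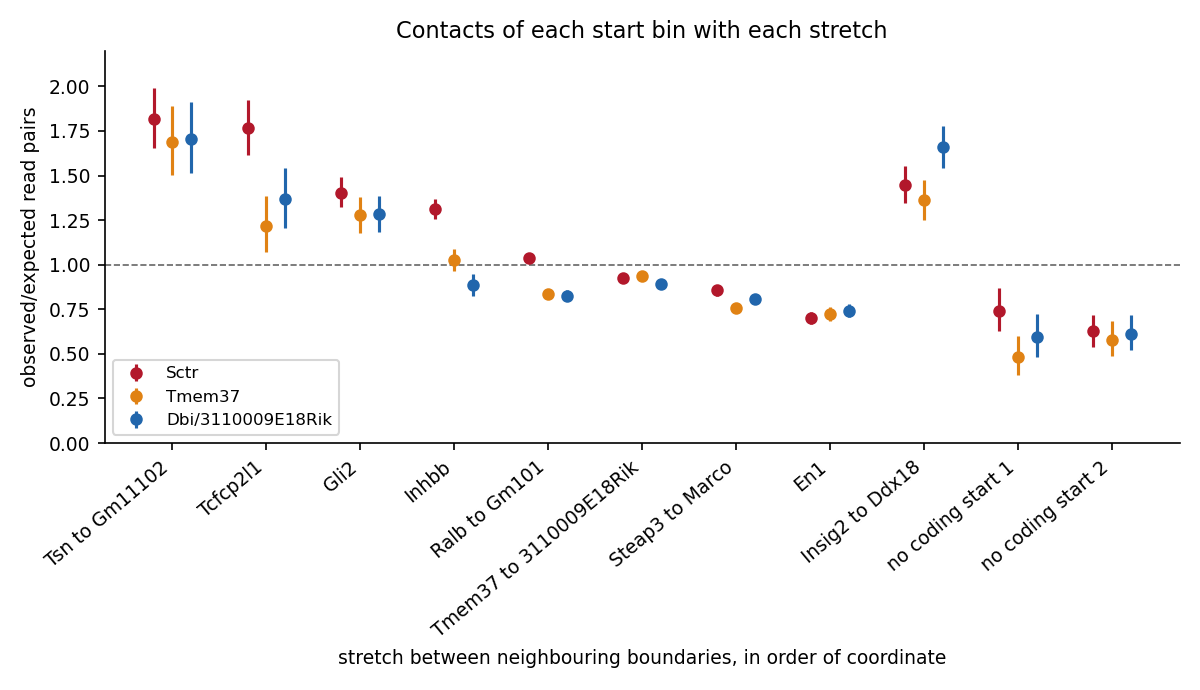
Observed/expected read pairs (y axis, linear) of the 3 start bins with each stretch between neighbouring boundaries, named by the first and last protein-coding gene that starts in it and ordered by coordinate; bars are exact Poisson 95% intervals and the dashed line marks 1. All 3 viewpoints lie above 1 with the stretches of Tsn to Gm11102, Tcfcp2l1, Gli2 and Insig2 to Ddx18, and below 1 with those of Tmem37 to 3110009E18Rik, Steap3 to Marco, En1 and the upper end.

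The promoters did not stand out as partners of each other. Sctr and Tmem37 were joined by 336 read pairs against 321 expected, an observed/expected value of 1.05 (0.936 to 1.16). Sctr and Dbi/3110009E18Rik were joined by 234 against 225, at 1.04 (0.909 to 1.18). Tmem37 and Dbi/3110009E18Rik, the nearest pair, were joined by 363 against 407, at 0.891 (0.802 to 0.987). In 5 kb bins this last value lay above 1, at 1.12 (0.810 to 1.497, 44 read pairs), so that its direction depends on the bin size.

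With the promoters of the Ralb-Ptpn4 stretch, Sctr and Dbi/3110009E18Rik had their highest values at its far end. Sctr had 124 read pairs with Ralb, a Ras-like GTPase, at 1.72 (1.43 to 2.05), and 117 with Epb4.1l5, which encodes a FERM domain protein of the cell cortex, at 1.51 (1.25 to 1.82). For this viewpoint these bins had ranks 7 and 12 among the 53 bins of that stretch. Dbi/3110009E18Rik had 67 with Ralb at 1.46 (1.13 to 1.86) and 80 with Epb4.1l5 at 1.84 (1.46 to 2.29), the highest of the 53 bins of that stretch for this viewpoint. Over blocks of 3 by 3 bins around these pairs the values were lower: 1.28 (1.19 to 1.39) and 1.14 (1.06 to 1.22) for Sctr, and 1.05 (0.935 to 1.17) and 1.15 (1.04 to 1.26) for Dbi/3110009E18Rik, so that the interval with Ralb included 1, as it did in 5 kb bins (0.895 to 2.46). From distance alone, with no balancing factors, Sctr with Ralb had 2.98. The values of Tmem37 with Ralb and Epb4.1l5 had intervals that included 1, at 1.18 (0.901 to 1.53) and 0.961 (0.703 to 1.28). With Ptpn4, a tyrosine phosphatase, the 3 viewpoints had 1.15, 0.899 and 1.01, and with Tmem177 1.09, 0.798 and 0.818. Gm101, whose start bin adjoins that of Sctr, had 0.896, 0.779 and 0.682.

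With the promoters of the Steap3-Marco stretch, the values of Steap3 and C1ql2 lay below 1 from all 3 viewpoints and those of Marco, at the far end, above it. Steap3, an iron reductase of endosomes, had 51 read pairs with Sctr at 0.609, 45 with Tmem37 at 0.558 (0.407 to 0.747) and 86 with Dbi/3110009E18Rik at 0.849. C1ql2, a secreted C1q-like protein, had 0.695, 0.665 and 0.632. Marco, a scavenger receptor of macrophages, had 1.01, 1.16 and 1.19, each with an interval that included 1. Over blocks of 3 by 3 bins the values with Marco were 0.985 (0.905 to 1.07), 1.11 (1.03 to 1.21) and 1.204 (1.11 to 1.30), and with the median per distance 1.17, 1.35 (1.06 to 1.71) and 1.40 (1.11 to 1.74), so the intervals of Tmem37 and Dbi/3110009E18Rik lay above 1 there. From distance alone Sctr with Marco had 1.68 (1.31 to 2.13). The En1 start bin had 44 read pairs with Sctr, at 0.695 (0.505 to 0.933), 33 with Tmem37, at 0.644 (0.443 to 0.905), and 48 with Dbi/3110009E18Rik, at 0.872 (0.643 to 1.16).

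As a group, the start bins of each stretch had medians above those of its other bins from some viewpoints and below them from others. For Sctr the median observed/expected value over the 5 start bins of the Ralb-Ptpn4 stretch was 1.15, against 1.17 over its other 48 bins. For Tmem37 the medians were 0.899 and 0.877, and for Dbi/3110009E18Rik 1.01 and 0.822. Over the 3 start bins of the Steap3-Marco stretch they were 0.695 for Sctr, 0.665 for Tmem37 and 0.849 for Dbi/3110009E18Rik, against 0.846, 0.739 and 0.809 over the other 38 bins. These lists are short, and their ranges overlapped in every case.

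**Figure D5:**
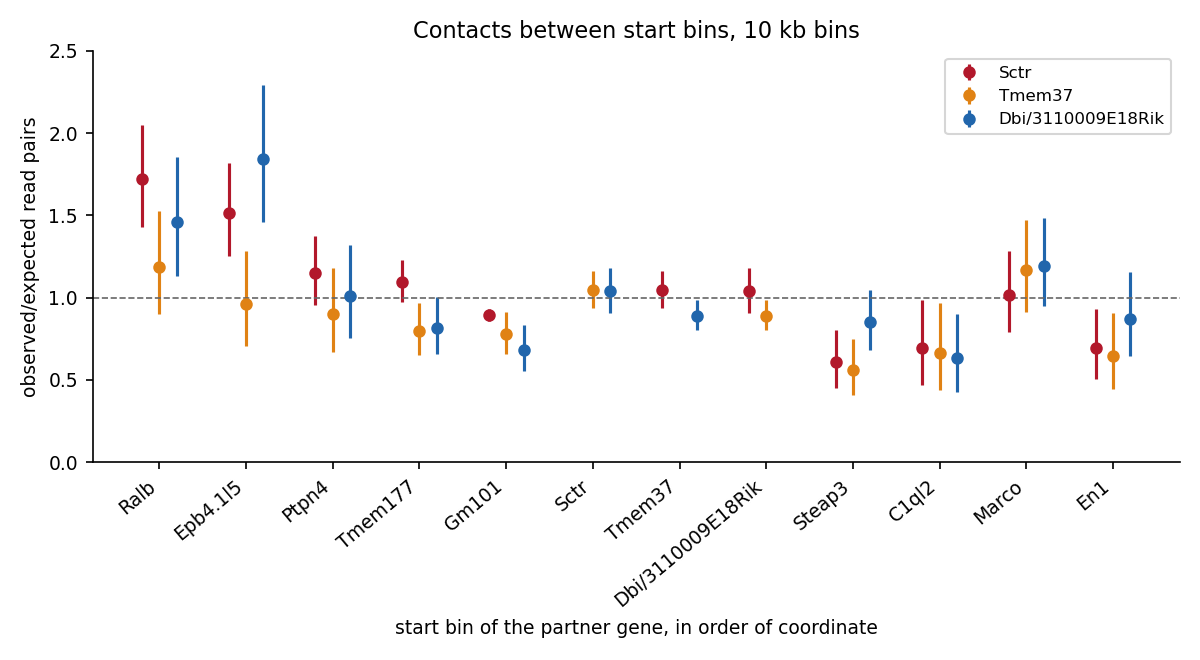
Observed/expected read pairs (y axis, linear) between the 3 start bins and the start bins of the genes of both stretches, of each other and of En1, ordered by coordinate; bars are exact Poisson 95% intervals and the dashed line marks 1. The values among Sctr, Tmem37 and Dbi/3110009E18Rik lie between 0.891 and 1.05, and the highest are those of Dbi/3110009E18Rik with Epb4.1l5 (1.84) and of Sctr with Ralb (1.72), which over blocks of 3 by 3 bins were 1.15 and 1.28.

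Single partner bins were called enriched by a fixed rule: a distance of 100 kb or more, a count of 10 read pairs or more, and a lower 95% bound of observed/expected above 1.5. Over all bin pairs of the range that could meet this rule, 2460 of 41810 did, which is 5.88%. Sctr had 24 enriched partners of 308 tested (7.79%), Tmem37 3 of 283 (1.06%) and Dbi/3110009E18Rik 9 of 284 (3.17%). Sctr was thus above the share of all pairs at this threshold and the other 2 viewpoints below it. A lower bound lies nearer to its value at higher counts, so these shares also depend on coverage. The Sctr bin had 37209 read pairs, against 26082 for Tmem37 and 26047 for Dbi/3110009E18Rik. With the lower bound above 2, Sctr had 3 partners (0.974%) against 2.02% of all pairs, so its place relative to the background turned with the threshold, and in 5 kb bins it had 8.51% against 8.18%. The lower bounds just inside and just outside the threshold were 1.52 and 1.47 for Sctr, 1.547 and 1.496 for Tmem37, and 1.504 and 1.486 for Dbi/3110009E18Rik.

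The enriched partners of Sctr lay nearly all on one side: 23 at lower coordinates and 1 at higher ones. The bins tested were not counted by side, so this split has no background to be set against. Of these 24, 6 lay in the Ralb-Ptpn4 stretch (44 of its bins tested) and 0 in the Steap3-Marco stretch (41 tested). The highest lower bound belonged to the bin from 120980001 to 120990000, 920 kb away, with 100 read pairs against 29.6 expected, an observed/expected value of 3.38 (2.75 to 4.11). That bin is a boundary, lies 29.8 kb above the Gli2 gene, and holds the 2 core matches printed above. In 5 kb bins, the 4 bin pairs that make up this contact had 23, 16, 33 and 28 read pairs, with observed/expected values from 2.54 to 4.48. It was the maximum of the 25 bin pairs in and around it, the others of which ran from 0.817 to 2.70. The bin was chosen for its high value from Sctr, which favours such a maximum. The bin next to it, from 120990001, had 65 read pairs at 2.70 (2.08 to 3.44).

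The second partner of Sctr by this rule was the bin from 121440001 to 121450000, 460 kb away, which overlaps the end of Epb4.1l5 opposite to its start. It had 205 read pairs against 81.1 expected, an observed/expected value of 2.53 (2.19 to 2.90), and was the maximum of its surrounding bin pairs too. From Tmem37 the same bin had 1.38 (1.08 to 1.74) and from Dbi/3110009E18Rik 0.977 (0.728 to 1.29). The boundary bin from 120980001 had 2.15 (1.55 to 2.90, 42 read pairs) from Tmem37 and 0.831 (0.475 to 1.35, 16 read pairs) from Dbi/3110009E18Rik. Both bins were chosen for their value from Sctr, so these values and both maxima are a description. Protein-coding starts lie in 24 of the 422 bins of the range. Of the 32 distinct enriched partners, 1 holds such a start, a count too small to compare. It is that of Gm11102, with 28 read pairs from Sctr at 2.36 (1.57 to 3.41). The same start bin had a like value from Dbi/3110009E18Rik, 2.43 (1.486 to 3.76), which missed the threshold, and 2.17 (1.29 to 3.43) from Tmem37.

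The partners of Tmem37 and Dbi/3110009E18Rik lay far away and rested on few read pairs. Tmem37 had the bin from 120360001 in Clasp1, a gene of a microtubule-binding protein (34 read pairs, 3.32, 2.299 to 4.64). Its others were the bin from 120570001 in Tcfcp2l1 (28 read pairs, 2.44, 1.62 to 3.52) and the boundary bin from 120980001. All 9 of Dbi/3110009E18Rik lay at 1190 kb or more, 3 at lower and 6 at higher coordinates, again with no count of tested bins by side. The first was the bin from 123370001 in Ccdc93 (28 read pairs, 3.10, 2.06 to 4.48), which from Sctr had 1.06 (0.531 to 1.90) and from Tmem37 1.79 (0.976 to 2.996). The next were the bin from 120270001 near Clasp1 (11 read pairs, 3.96, 1.98 to 7.09) and the bin from 120440001 in Clasp1 (28 read pairs, 2.65, 1.76 to 3.83).

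Contacts were also divided by side. Of the contacts of Sctr, 45.8% (Wilson 45.2 to 46.4%) lay at higher coordinates, against 51.8% expected. For Tmem37 the share was 49.1% (48.4 to 49.8%) against 50.4%, and for Dbi/3110009E18Rik 49.0% (48.3 to 49.7%) against 52.8%. All 3 viewpoints therefore had more of their contacts at lower coordinates than distance and coverage gave, with the largest gap for Sctr. In 5 kb bins the share of Tmem37 was 51.5%.

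Profiles over the bins at 100 kb or more from both starts were compared with those of the other protein-coding start bins. The profile of Sctr was most like those of Tmem177 (Spearman 0.63 over 393 bins) and Gm101 (0.62 over 402), both of the Ralb-Ptpn4 stretch. That of Tmem37 was most like those of Sctr (0.56 over 396 bins) and Dbi/3110009E18Rik (0.53 over 399), and that of Dbi/3110009E18Rik most like those of Sctr (0.60 over 392) and Tmem37. These correlations are descriptions across bins of 1 map, which share the library and the expected values.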

How the data were processed

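The authors deposited raw counts of read pairs per pair of bins, and a balanced contact signal (KR in the deposited file names, read as Knight-Ruiz balancing), each for 1 merged map on mm9. The file names carry HiCUP, a mapping quality minimum of 30 and 50 bp; Bowtie2 2.3.4.1, Juicer 1.7.6 and SAMtools stand in the submitters' processing notes with no role. The 5 kb and 10 kb tables were used.

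Expected counts were the mean balanced signal per distance over bins from 120180001 up, times the balancing factors of both bins, which were recovered from the ratio of raw to balanced values. Expected values were treated as free of error. Stretch contrasts had exact conditional binomial intervals (Clopper-Pearson), single values exact Poisson and shares Wilson intervals, all at 95%. Ratios between the contrasts of 2 viewpoints had 95% intervals from a normal approximation on the log scale. No p-value was computed, since the map has no replicates. Boundaries were local minima of the insulation score (150 kb windows, prominence at least 0.2). Steps were tested on simulated data (Python 3.11.15, numpy 2.4.6, scipy 1.17.1).

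The genes, stretches and rules were chosen with earlier results of these data known; the motif search, the bin-by-bin contrast and the contacts with other stretches were added after values were seen. Named were the 4 genes, the genes starting in both stretches, En1, per viewpoint the 3 enriched partners with the highest lower bound and the 2 most alike profiles.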

Additional observations from a re-analysis of the deposited data

How the results depend on the processing

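No paired analysis was possible because only 1 map, labelled merged, was given, which for the same reason could not be recomputed without either sample. The limits are therefore those of counting and of the expected values: partners beyond 1 Mb rest on few read pairs, and a merged map shows no spread between embryos. The stretch contrast of Sctr stayed above 1 in every setting run: 1.15 with the expected count from distance alone (no balancing factors), 1.43 with balanced signal and equal weights, 1.14 with the median per distance, 1.43 with bins at 100 kb or more, 1.59 at matched distances and 1.56 at distances matched over all viewpoints, the last chosen after the data were seen. That of Tmem37 was 1.01 from distance alone and 1.04 at matched distances. That of Dbi/3110009E18Rik was 0.956 in 5 kb bins, 0.941 from distance alone, 0.959 with a viewpoint of 3 bins, 0.959 at 100 kb or more, 0.835 at matched distances and 0.804 at distances matched over all viewpoints; the other starts of 3110009E18Rik gave 0.812 and 0.647. With the median per distance, by contrast, that of Dbi/3110009E18Rik was 1.07 (1.02 to 1.12). With the expected count over the whole map it was 1.04 (0.989 to 1.09), so its direction depended on the setting. Of the contrasts' distinct alternatives, 16 of 32 moved the value by less than its interval.

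Between promoters, Sctr with Tmem37 had 0.902 in 5 kb bins and 1.56 from distance alone; Sctr with Dbi/3110009E18Rik had 0.860, 1.57 and, over blocks of 3 by 3 bins, 0.897; Tmem37 with Dbi/3110009E18Rik had 1.12 and 1.00. Among the pairs with other promoters whose interval excluded 1, the direction turned for Sctr with Gm101 (1.23) and with En1 (1.16) from distance alone, and for Sctr with C1ql2 (1.00) and Tmem37 with Steap3 (2.01, 8 read pairs) in 5 kb bins. In the 12 pairs whose interval included 1, 13 of 60 alternatives put the value on the other side of 1, among them Sctr with Ptpn4 (0.863 over blocks of 3 by 3 bins), Dbi/3110009E18Rik with Ptpn4 (0.753 from distance alone) and with En1 (1.14 from distance alone). Sctr had 107 enriched partners from distance alone (34.7% of those tested, against 12.0% of all pairs), 40 with the median per distance (12.99% against 9.24%), 55 at a threshold of 1.2 (17.9% against 13.1%) and 3 at 2 (0.974% against 2.02%). In the same settings Tmem37 had 15 (5.3%), 7 (2.47%), 17 (6.01%) and 1 (0.353%). It had 1 of 79 tested in 5 kb bins (1.27% against 8.18%). With the expected count over the whole map it had 5 (1.77% against 6.89%). Dbi/3110009E18Rik had 27 (9.51%), 18 (6.34%), 25 (8.8%) and 1 (0.352%), with 15 over the whole map (5.28% against 6.89%). Each of these shares of Tmem37 and Dbi/3110009E18Rik lay below that of all pairs. The share of contacts at higher coordinates was 47.8% in 5 kb bins and 44.96% in balanced signal for Sctr, 51.5% in 5 kb bins and 44.2% with 3 bins for Tmem37, and 50.7%, 46.7% in balanced signal and 51.2% with 3 bins for Dbi/3110009E18Rik. Why these values moved was not tested.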
